A study of Rattus norvegicus with 23 samples.

Results

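The response of the rat area postrema to 72 h of dehydration was read from the 4 arrays of dehydrated rats against the 4 arrays of control rats, which are 8 of the 23 arrays of the series, over all 31042 probe sets that are not array controls. Every array was an Affymetrix Rat 230 2.0 chip, on which a probe set is a group of short probes that reads 1 transcript or part of it. It was hybridised with labelled RNA from the pooled area postrema of 5 male Sprague Dawley rats aged 10 to 12 weeks. The 5 fasted arrays of the same strain, sex and age, from rats without food for 48 h, entered the same model and are given beside the dehydrated values where they bear on them. The hypertensive and normotensive strains of the series take no part in these comparisons. The labels give no food intake, body weight or plasma osmolality of the dehydrated rats.

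The area postrema is a small midline organ at the floor of the fourth ventricle whose capillaries lack a tight blood-brain barrier, so that its neurons and glia meet circulating sodium, hormones and toxins. Its neurons project to the neighbouring nucleus of the solitary tract and take part in vomiting, appetite, salt balance and blood pressure control. Water deprivation raises plasma osmolality and lowers blood volume, which is known to act on the brain through osmosensitive neurons, angiotensin and vasopressin.

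Array signals are linear and were scaled by the authors so that each array has the same trimmed mean of 100. The 13 Sprague Dawley arrays had median signals between 39.81 and 43.56. Transcripts that define area postrema neurons were measurable in both groups: Th, tyrosine hydroxylase of catecholamine synthesis, had a signal of 320.0 ± 8.81 (SD, n = 4) in controls, and Calcr, the calcitonin receptor, 124.5 ± 23.3. None of the 9 measured genes of the area postrema chemosensory list was at 0, and their summed signal ranged from 1738 to 1927 in controls and from 1764 to 2007 after dehydration. Choroid plexus transcripts, from tissue that borders the organ, varied widely within both groups, with summed signals of 2696 to 11470 in controls and 2562 to 13722 after dehydration. The first principal component (16.7% of the variance) separated 3 of the dehydrated arrays from the controls, at -16.26, -19.16 and -13.81 against -2.72 to 12.43, whereas dehydrated array 4 lay at 3.43 among the controls (exact permutation p = 0.0571, two-sided, where the smallest possible p is 0.0286). RNA integrity, read as the log2 ratio between the 3' and 5' probe sets of Gapdh, was 0.406 ± 0.196 after dehydration and 0.339 ± 0.161 in controls (SD, n = 4 each, exact permutation p = 0.571).

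Dehydration was accompanied by small changes in few probe sets. Of 18625 probe sets bright enough to be tested, 31 passed the threshold of 0.05 on the adjusted p (0.166%), of which 10 were higher after dehydration (0.0537%) and 21 lower (0.113%). Differences are given on the scale of log2(signal + 16), dehydrated minus control, with adjusted p-values from limma and the Benjamini-Hochberg method over all probe sets tested. The median size of the 31 differences was 0.56, and 1 probe set, that of Bdnf, changed by 2-fold or more. In all 31 the 4 dehydrated arrays lay wholly above or wholly below the 4 controls, which held for 6.69% of all probe sets tested. At an unadjusted p below 0.05 there were 1029 probe sets higher (5.52%) and 1142 lower (6.13%). The 31 probe sets read 28 named genes and 3 transcripts without a single gene name.

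The number of calls rested on single arrays. It was 9 without control 4 and 9 without dehydrated 1, 12 without control 2 and 12 without dehydrated 2, and 15 without control 1. It was 21 without dehydrated 3, 33 without control 3 and 42 without dehydrated 4. The number was 56 without fasted 4, which enters through the shared estimate of spread and the brightness filter. The labelling protocol of controls 1 and 2 lacks the closing phrase that the other arrays carry. With controls 3 and 4 alone, 2 probe sets passed, those of Bdnf (1.18, adjusted p = 0.00117) and Vgf (0.71, adjusted p = 0.0282), and the other 29 kept their direction.

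**Figure D1:**
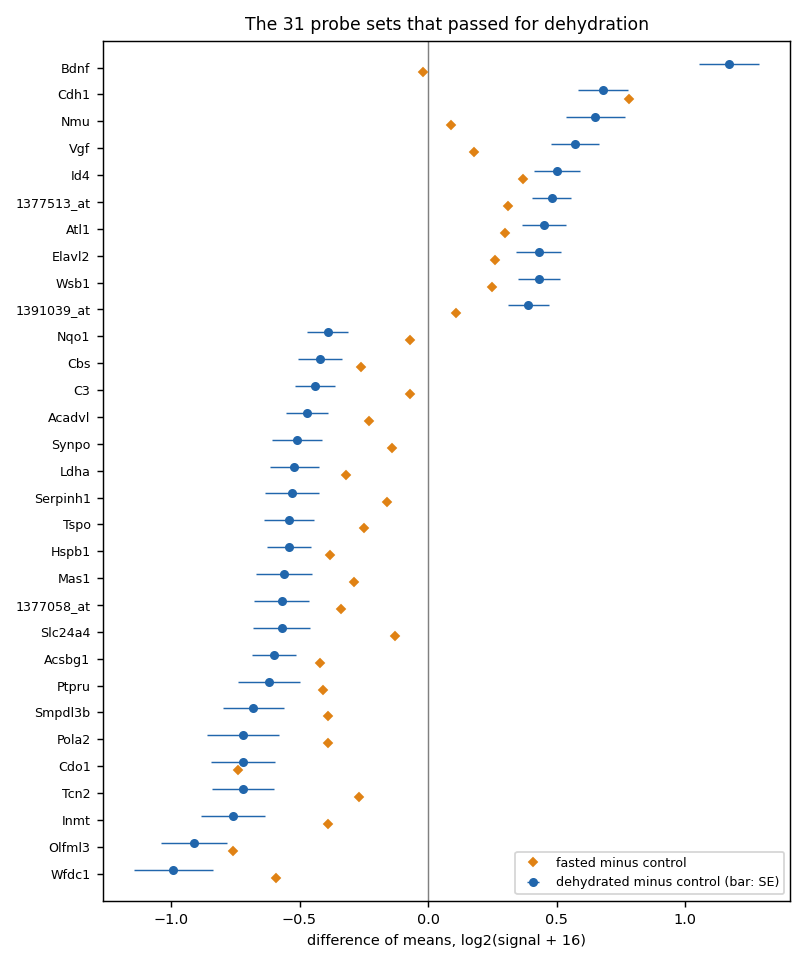
Difference in log2(signal + 16) for the 31 probe sets that passed, dehydrated minus control (blue circles, with bars of 1 SE) and fasted minus control (orange diamonds), which share the control arrays. Bdnf stands at 1.17 after dehydration and at -0.02 after fasting, whereas Cdh1 is raised in both, at 0.68 and 0.78, and Cdo1 lowered in both, at -0.72 and -0.74.

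Genes for secreted neuronal proteins were 3 of the 4 largest rises that passed. Bdnf, brain-derived neurotrophic factor, is an activity-dependent growth factor that acts on the receptor TrkB. Its signal was 84.8, 122.2, 112.8 and 88.3 in the 4 controls and 234.1, 238.1, 246.3 and 270.2 in the 4 dehydrated arrays. Every dehydrated array lay above every control by more than the controls spanned among themselves, and the 5 fasted arrays, at 82.6 to 121.0, overlapped the controls. The difference was 1.17 (SE 0.117, adjusted p = 4.99e-05), a ratio of 2.25. A dimmer Bdnf probe set had a mean signal of 35.7 in controls and 31.0 after dehydration (-0.14, adjusted p = 0.76). In pooled tissue, a larger number of cells of a type and more RNA per cell cannot be told apart, for this gene or any below.

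Vgf encodes a secreted granin-family precursor of neuronal and endocrine peptides whose transcription is known to follow neurotrophins and activity. It read 361.8, 393.6, 342.5 and 276.4 in controls and 546.4, 504.6, 520.0 and 479.8 after dehydration, with no overlap. The difference was 0.57 (SE 0.094, adjusted p = 0.0152). Nmu encodes neuromedin U, a peptide that reduces feeding and raises blood pressure when given centrally. Its signals were 86.4, 127.7, 117.6 and 87.1 in controls and 183.7, 170.5, 152.2 and 179.7 after dehydration, so that all 4 dehydrated arrays exceeded every control. The difference was 0.65 (SE 0.114, adjusted p = 0.0167). Bdnf passed in each of the 13 fits that left out 1 array (highest adjusted p = 0.000629). Vgf did not pass without control 4 or dehydrated 1 (adjusted p = 0.0533 to 0.0614), nor Nmu without control 1 or 4 or dehydrated 1 or 2 (0.0595 to 0.109).

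The 250 bases before the transcription start of these 3 genes are shown because the genes rose and their promoters were searched for the cyclic AMP response element. The full element was found only before Vgf; Nmu and 1 start of Bdnf had a half-site. The sequences are from RefSeq on the build GRCr8, written 5' to 3' on the strand of the gene. Capitals mark the full element TGACGTCA, or its half-site TGACG or, read from the other strand, CGTCA; a full element contains a half-site on each strand. The Vgf sequence is chr12:25277021-25277270 on the minus strand, with the full element beginning at position -90 from the start. The Nmu sequence is chr14:32198693-32198942 on the plus strand, with a half-site at -103. Bdnf has 6 listed starts, of which 1 has a half-site; the sequence before it is chr3:116637608-116637857 on the plus strand, with the half-site at -35.
Vgf: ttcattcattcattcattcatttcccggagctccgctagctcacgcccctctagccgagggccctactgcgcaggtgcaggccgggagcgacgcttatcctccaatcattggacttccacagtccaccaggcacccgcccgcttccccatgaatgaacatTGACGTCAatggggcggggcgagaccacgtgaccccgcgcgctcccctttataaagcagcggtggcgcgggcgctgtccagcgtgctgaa
Nmu: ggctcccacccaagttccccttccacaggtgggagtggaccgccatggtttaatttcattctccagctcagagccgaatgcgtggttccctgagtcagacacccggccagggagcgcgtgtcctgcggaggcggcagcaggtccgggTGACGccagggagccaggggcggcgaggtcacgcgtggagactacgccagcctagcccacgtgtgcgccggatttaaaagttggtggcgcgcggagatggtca
Bdnf: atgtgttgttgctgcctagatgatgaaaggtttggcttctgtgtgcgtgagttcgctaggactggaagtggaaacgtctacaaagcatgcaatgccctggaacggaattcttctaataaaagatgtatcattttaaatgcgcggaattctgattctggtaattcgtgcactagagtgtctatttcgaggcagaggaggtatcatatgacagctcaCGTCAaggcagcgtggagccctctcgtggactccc
A promoter was at hand for 23 of the 28 named genes. The full element was present before 2 of 7 genes that rose (Vgf and Wsb1) and 2 of 16 that fell (Ldha and Ptpru), against 1.78% of 27457 genes in the table. A half-site was present before 5 of 7 that rose and 3 of 16 that fell, against 20.0% of genes. A gene counted if any of its listed starts matched, and a gene with many starts, such as Bdnf with 6, matches more easily. The full element of Wsb1 lay before only 1 of its listed starts. Over 33469 single starts, the shares were 1.59% for the full element and 18.2% for the half-site. The motif was chosen after the genes were known, and a match describes letters, not binding.

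**Figure D2:**
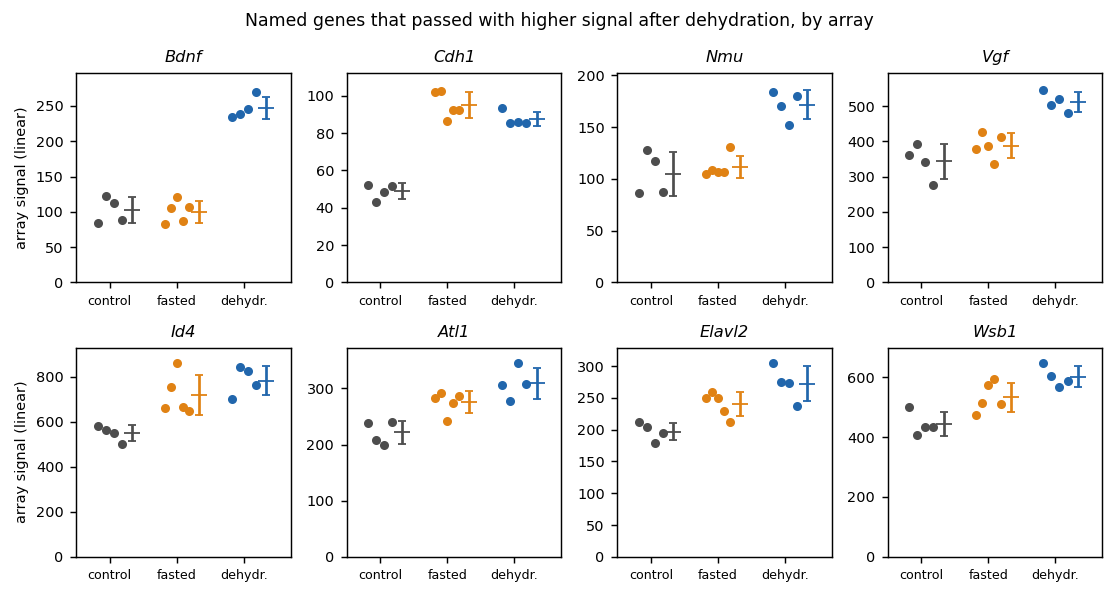
Linear array signal of the 8 named genes that passed with higher signal after dehydration, for 4 control, 5 fasted and 4 dehydrated arrays. Points are arrays and the crosses with bars are mean ± SD; in Bdnf the dehydrated arrays, from 234.1 to 270.2, stand apart from both other groups, and in Cdh1 the fasted and dehydrated arrays both lie above the controls.

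Cdh1, E-cadherin, an epithelial adhesion molecule, read 52.3, 43.1, 48.4 and 51.7 in controls and 93.2, 85.4, 86.0 and 85.5 after dehydration. The difference was 0.68 (SE 0.097, adjusted p = 0.00522), and the fasted arrays were equally high, at 86.2 to 102.7. Cdh1 passed in all 13 fits that left out 1 array, but not with all 23 arrays of the series in 1 model (adjusted p = 0.0896). Atl1, atlastin, a GTPase that shapes the endoplasmic reticulum of neurons, rose by 0.45 (adjusted p = 0.0308) at its brighter probe set, while its other probe set had a difference of -0.19 (adjusted p = 0.729). Wsb1, the adaptor of a ubiquitin ligase, rose by 0.43 (adjusted p = 0.0308). Id4 and Elavl2 fell outside the rule for named genes, since they passed at a probe set that is not the brightest of the gene, and were chosen after their values were seen. Id4, an inhibitor of helix-loop-helix transcription factors, rose by 0.50 at 1 of 4 probe sets (adjusted p = 0.0201), with 0.14 to 0.33 at the others. Elavl2, a neuronal RNA-binding protein, rose by 0.43 at 1 of 3 (adjusted p = 0.0459), with 0.15 and 0.27 at the others. The unnamed probe set 1377513_at rose by 0.48 (adjusted p = 0.00833) and passed in all 13 fits; 1391039_at rose by 0.39 (adjusted p = 0.0459). Id4 did not pass without control 2 or 4 or dehydrated 2 or 3 (adjusted p = 0.0572 to 0.115), and Wsb1 without control 2, 3 or 4 or dehydrated 1, 2 or 3 (0.0554 to 0.141). Atl1 did not pass without any 1 of the controls or without dehydrated 1, 3 or 4 (0.0521 to 0.115). Elavl2 did not pass without any 1 control, without fasted 2 or 3, or without dehydrated 1, 2 or 3 (0.0554 to 0.168). The probe set 1391039_at did not pass without any 1 control, without fasted 2, 3 or 5, or without dehydrated 1, 2 or 3 (0.0615 to 0.21).

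Cysteine, taurine and methyl-group metabolism gave 3 of the falls. Cdo1, cysteine dioxygenase, commits cysteine to taurine synthesis. It read 1003.4, 1184.5, 789.9 and 1104.2 in controls and 565.3, 746.2, 616.2 and 520.5 after dehydration, with no overlap. Its difference was -0.72 (SE 0.124, adjusted p = 0.0202). Tcn2, transcobalamin, carries vitamin B12 to cells, where it serves the remethylation of homocysteine. It read 1307.6, 1341.1, 1094.9 and 1344.4 in controls and 608.9, 741.2, 860.0 and 861.7 after dehydration, and fell by 0.72 (adjusted p = 0.0164). Cbs, cystathionine beta-synthase, turns homocysteine towards cysteine. It read 902.1, 898.8, 832.5 and 948.0 in controls and 597.7, 639.2, 679.4 and 754.5 after dehydration, and fell by 0.42 (adjusted p = 0.0459).

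Of the 10 tested genes of that list, 3 fell and none rose, and the median difference was -0.24 against -0.009 over all probe sets. In 6 of them the dehydrated arrays lay below the controls without overlap, which held for 3.37% of all probe sets. The list's median was -0.18 for fasted minus control. It was chosen with earlier results of these data known and holds Cdo1, Tcn2 and Cbs, so its shares are no independent support. Mat2a, which makes S-adenosylmethionine, had a difference of -0.27 (adjusted p = 0.157). Csad, of taurine synthesis, had -0.25 (adjusted p = 0.225), and Ahcy, which cleaves S-adenosylhomocysteine, had -0.21 (adjusted p = 0.251). Inmt, indolethylamine N-methyltransferase, uses S-adenosylmethionine and was not in the list. It fell by 0.76 (SE 0.124, adjusted p = 0.0124), from 120.6 to 154.8 in controls to 55.2 to 92.3 after dehydration. Its fasted arrays, at 91.4 to 103.9, also lay below every control (fasted minus control -0.39, adjusted p = 0.458). Cdo1 did not pass without control 1, 2 or 4 or dehydrated 1 or 3 (adjusted p = 0.0585 to 0.115), nor Tcn2 without control 1, 2 or 4 or dehydrated 2 (0.0548 to 0.0903). Cbs did not pass without control 1, 2 or 4, fasted 3 or 5, or dehydrated 1, 2 or 3 (0.0664 to 0.204), and Inmt without control 2 (0.0556).

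Wfdc1 and Olfml3, both secreted proteins, had the largest falls. Wfdc1, a secreted protein with a protease-inhibitor domain, read 867.2, 836.0, 697.6 and 784.6 in controls and 328.8, 360.5, 386.6 and 505.4 after dehydration. The difference was -0.99 (SE 0.152, adjusted p = 0.0152), the largest fall among the 31, and every dehydrated array was below every control. The fasted arrays of Wfdc1, at 353.1 to 607.8, also lay below every control (fasted minus control -0.59, adjusted p = 0.339). Olfml3, a secreted olfactomedin-like matrix glycoprotein, read 579.4, 576.0, 462.3 and 595.2 in controls and 226.4, 323.1, 287.7 and 313.2 after dehydration, and fell by 0.91 (SE 0.129, adjusted p = 0.00535). Serpinh1, a chaperone for collagen, fell by 0.53 (adjusted p = 0.0445). C3, complement component C3, fell by 0.44 (adjusted p = 0.0164), from 189.9 to 208.8 in controls to 136.1 to 144.9 after dehydration; it lies beyond the 15 largest falls of the naming rule and was chosen after its value was seen. Olfml3 passed in all 13 fits that left out 1 array. Wfdc1 did not pass without control 1, 2 or 4 or dehydrated 1 or 2 (adjusted p = 0.0533 to 0.0607), nor C3 without control 4 or dehydrated 1 or 2 (0.0533 to 0.0903). Serpinh1 did not pass without control 1, 3 or 4, fasted 2, 3 or 5, or dehydrated 1, 2 or 3 (0.0543 to 0.197).

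Fibroblast transcripts are given beside these genes. None of the 11 tested genes of the fibroblast and meninges list passed, and the median was -0.25. At an unadjusted p below 0.05, 6 of them were lower, against 6.13% of all probe sets tested. The list's median was -0.21 for fasted minus control. Igf2, a growth factor of the meninges, had a difference of -0.57 (adjusted p = 0.0727), and passed in 4 of 26 other settings (lowest adjusted p = 0.0345); Col1a2, a chain of type I collagen, had -0.42 (adjusted p = 0.19). The summed signal of that list ranged from 6288 to 7889 in controls and from 5216 to 7086 after dehydration, so the groups overlapped, and none of its defining markers was at 0. The part of meningeal tissue in the fall of Wfdc1, Olfml3 and Serpinh1 was not tested.

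Among the falls, 5 were of genes with a role in energy or lipid metabolism, grouped here after the calls were seen. Over all probe sets tested, 0.113% were called lower. Ldha and Acadvl were in metabolic lists, Acsbg1 was in the astrocyte list, and Tspo and Smpdl3b were in none. Acsbg1, an acyl-CoA synthetase of astrocytes that activates long-chain fatty acids, read 892.5, 906.6, 907.9 and 936.2 in controls and 553.6, 611.8, 614.9 and 610.8 after dehydration. The difference was -0.60 (SE 0.085, adjusted p = 0.00522), and the gap between the groups was much wider than the spread in either. The fasted arrays of Acsbg1, at 584.1 to 809.6, also lay below every control (fasted minus control -0.42, adjusted p = 0.107). Ldha, the lactate dehydrogenase subunit A, read 2273.1, 2279.6, 1872.0 and 2306.0 in controls and 1413.8, 1420.1, 1596.3 and 1611.5 after dehydration, and fell by 0.52 (adjusted p = 0.0211). Acadvl, which starts the mitochondrial oxidation of very long fatty acids, fell by 0.47 (adjusted p = 0.0164). Tspo, a cholesterol-binding protein of the outer mitochondrial membrane, fell by 0.54 (adjusted p = 0.0228), and Smpdl3b, a membrane enzyme of sphingolipid metabolism, by 0.68 (adjusted p = 0.0164). Acsbg1 passed in all 13 fits that left out 1 array. Ldha, Acadvl and Tspo did not pass without control 1, 2 or 4 or dehydrated 1 or 2 (adjusted p = 0.0755 to 0.115, 0.0541 to 0.0903 and 0.0845 to 0.115), nor Smpdl3b without control 1 or 2 or dehydrated 1 or 2 (0.0572 to 0.0634).

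The lists around these genes held few calls. Of 29 genes that oxidise fatty acids or handle ketones, 1 fell (Acadvl), 24 had negative differences and the median was -0.14; over all probe sets tested 52.3% were negative. Of 34 subunits of oxidative phosphorylation none passed, 31 were negative and the median was -0.10. At an unadjusted p below 0.05, 7 of them were lower, against 6.13% of all probe sets tested. Glycolysis and glucose entry had 1 fall (Ldha) among 19 genes and a median of -0.05. None of 11 genes of fatty acid synthesis passed, with Fads1, a desaturase, at -0.38 (adjusted p = 0.157). The 21 genes of cholesterol synthesis and uptake had a median of 0.01 and no call; the member furthest from it was Abca1, a cholesterol exporter, at 0.54 (adjusted p = 0.139). Fasted minus control, the medians were 0.0 for fatty acid oxidation and ketones, -0.14 for oxidative phosphorylation and -0.04 for glycolysis. They were -0.14 for fatty acid synthesis and -0.15 for cholesterol synthesis and uptake. Acsbg1 was the only call among 12 astrocyte markers, whose median was 0.00 after dehydration. The summed signal of the astrocyte list was 17095 to 20398 in controls and 17600 to 20246 after dehydration.

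**Figure D3:**
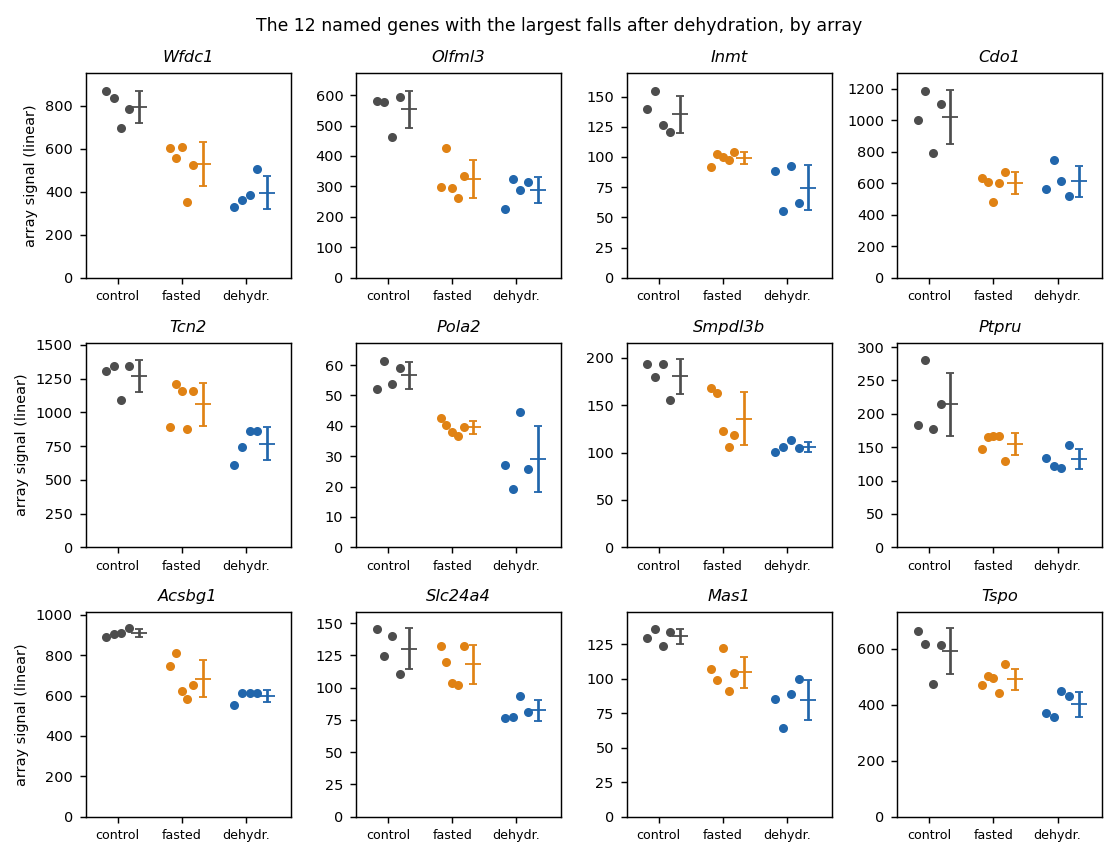
Linear array signal of the 12 named genes with the largest falls after dehydration, for 4 control, 5 fasted and 4 dehydrated arrays. Points are arrays and the crosses with bars are mean ± SD; no dehydrated array reaches the lowest control in any panel, and the fasted arrays lie level with the dehydrated ones in Cdo1 and their mean lies between the other groups in Tcn2.

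Hspb1, a small heat shock protein, read 322.8, 345.5, 312.0 and 350.3 in controls and 249.2, 215.8, 201.3 and 229.0 after dehydration, without overlap. Its fasted arrays, at 219.4 to 272.5, also lay below every control (fasted minus control -0.38, adjusted p = 0.164). After dehydration Hspb1 fell by 0.54 (SE 0.085, adjusted p = 0.00833) and passed in all 13 fits that left out 1 array. It was the only call among 18 cytosolic heat shock proteins and cochaperones, whose median was -0.07, with Fkbp4, a cochaperone of steroid receptors, at -0.36 (adjusted p = 0.166). Nqo1, a quinone reductase, read 279.0 to 289.6 in controls and 203.9 to 235.6 after dehydration, and fell by 0.39 (adjusted p = 0.0459). Of 24 antioxidant enzymes it alone passed, 23 were negative and the median was -0.12. None of 21 chaperones of the endoplasmic reticulum passed (median -0.06). None of 15 cytokine, Stat3 and prostaglandin genes passed, although 14 were negative and the median was -0.19, with the transcription factor Stat3 at -0.28 (adjusted p = 0.306). The 27 interferon and antigen presentation genes had no call and a median of 0.09. Fasted minus control, the medians were -0.05 for heat shock proteins, -0.06 for antioxidant enzymes and -0.05 for endoplasmic reticulum chaperones. They were -0.22 for the cytokine list and -0.16 for the interferon list. Nqo1 did not pass without any 1 control, without fasted 2, 3 or 5, or without dehydrated 1, 2 or 3 (adjusted p = 0.058 to 0.161).

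Mas1, the receptor for a short angiotensin peptide that opposes angiotensin II, read 129.7, 135.8, 123.6 and 133.6 in controls and 85.5, 64.5, 88.9 and 99.4 after dehydration, and fell by 0.56 (SE 0.11, adjusted p = 0.0406). Slc24a4, an exchanger of sodium against calcium and potassium, fell by 0.57 (adjusted p = 0.0308) at its brightest probe set and had -0.36 at another (adjusted p = 0.262). Ptpru, a receptor tyrosine phosphatase, fell by 0.62 (adjusted p = 0.0366). Pola2, a subunit of DNA polymerase alpha, fell by 0.72 (adjusted p = 0.0394), at the low signals of 52.1 to 61.4 in controls and 19.1 to 44.5 after dehydration. Synpo, an actin-binding protein of dendritic spines chosen after its value was seen, fell by 0.51 (adjusted p = 0.0275), and the unnamed probe set 1377058_at by 0.57 (adjusted p = 0.0278).

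Mas1 did not pass without any 1 control, without fasted 2 or 5, or without dehydrated 1, 2 or 3 (adjusted p = 0.0548 to 0.161). Slc24a4 did not pass without control 1, 2 or 3 or dehydrated 1, 2 or 4 (0.0565 to 0.114), Ptpru without control 2 or 4 or dehydrated 1, 2 or 3 (0.0845 to 0.158), and Synpo without control 1, 2 or 4 or dehydrated 1 or 3 (0.0736 to 0.108). Pola2 did not pass without any 1 control, without fasted 2, 3 or 5, or without dehydrated 1, 2 or 4 (0.0543 to 0.161), and 1377058_at without control 2 or 4 or any 1 dehydrated array (0.0522 to 0.126).

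In the lists of genes most directly tied to water and salt balance, Mas1 was the only call, and Slc24a4 was in none of them. The fasted arrays of Mas1, at 91.3 to 122.0, also lay below every control (fasted minus control -0.29, adjusted p = 0.552). Its direct difference, dehydrated minus fasted, was -0.27 (adjusted p = 0.406). Nfat5, the transcription factor of the cellular response to high tonicity, read 406.3, 300.5, 286.9 and 302.4 in controls and 300.1, 335.1, 398.5 and 344.6 after dehydration, with full overlap (0.09, 95% interval -0.13 to 0.31, adjusted p = 0.778). Slc5a3, the myo-inositol transporter, had a difference of 0.09 (interval -0.20 to 0.38, adjusted p = 0.84), and Akr1b1, aldose reductase, which makes sorbitol, had -0.05 (interval -0.21 to 0.11, adjusted p = 0.844). Slc6a6, the taurine transporter, read 194.1 to 199.4 in controls and 219.1 to 236.3 after dehydration, with no overlap (3.32% of all probe sets were higher in this way). The difference was 0.19 (interval 0.04 to 0.35, adjusted p = 0.313). None of the 12 tested genes of the tonicity and osmolyte list passed, and their median was 0.07; Slc6a12 and Hspa1b, also on the list, were not analysed here. Sgk1, a kinase that regulates sodium channels and responds to steroids, had 0.06 (adjusted p = 0.919).

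No water channel or sodium channel in the lists passed. Aqp4, the water channel of astrocytes, read 791.5, 883.7, 1470.9 and 1238.6 in controls and 1750.8, 1061.9, 1202.8 and 1155.1 after dehydration (0.25, interval -0.24 to 0.74, adjusted p = 0.701). Scn7a, the sodium-level sensor of glia in circumventricular organs, had 0.13 (interval -0.16 to 0.42, adjusted p = 0.752). No gene passed among 3 tested aquaporins, 10 osmosensitive and sodium-sensing channels (median 0.10) and 17 sodium pumps, exchangers and cotransporters (median 0.02). Trpv1, a channel of osmosensitive neurons, was below the brightness filter, with mean signals of 8.66 in controls and 7.88 after dehydration.

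Of 11 genes of the renin-angiotensin-aldosterone system, Mas1 fell and none rose. Agt, angiotensinogen, had a difference of -0.11 (interval -0.28 to 0.06, adjusted p = 0.629), and Agtr1a, the main angiotensin receptor of rodent brain, had -0.13 (interval -0.36 to 0.09, adjusted p = 0.663). Agtr1b was below the filter, at 29.0 ± 6.81 in controls and 16.5 ± 5.03 after dehydration (SD, n = 4). Avpr1a, a vasopressin receptor, had 0.22 (interval -0.06 to 0.50, adjusted p = 0.54). Npr1, the receptor for atrial natriuretic peptide, had -0.15 (adjusted p = 0.678), no gene passed among 9 of natriuretic peptide, nitric oxide and cGMP signalling (median 0.09), and Nos1, neuronal nitric oxide synthase, was below the filter at 16.6 and 18.1.

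Avp and Oxt, the precursors of vasopressin and oxytocin, had the largest differences of all probe sets tested and did not pass. Avp read 168.4, 87.0, 75.2 and 94.1 in controls and 1286.6, 1298.9, 159.1 and 244.5 after dehydration. Dehydrated arrays 1 and 2 were far above every control, whereas array 3 lay below control 1. The difference was 2.17 (SE 0.671, interval 0.68 to 3.66, adjusted p = 0.258). Oxt read 214.2, 81.6, 69.0 and 58.2 in controls and 1863.5, 1473.7, 141.9 and 195.8 after dehydration (2.34, SE 0.819, adjusted p = 0.314), with the same 2 arrays high. Without those 2 arrays the differences were 0.86 for Avp and 0.74 for Oxt (adjusted p = 0.789 and 0.852). Single arrays of the spontaneously hypertensive strain reached 1497.3 for Avp and 3062.4 for Oxt without dehydration. Pdyn, the dynorphin precursor, read 210.3, 158.0, 146.1 and 89.1 after dehydration and 71.1 to 153.8 in controls (0.54, adjusted p = 0.412). Crh, corticotropin-releasing hormone, was too dim to be tested. Its 4 dehydrated signals of 26.9 to 32.0 lay above the controls at 9.49 to 14.1 and the fasted arrays at 6.80 to 14.1. Without dehydration, the highest Crh signal was 39.8 in the hypertensive strain and 22.3 in the normotensive strain.

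The whole comparison was repeated without dehydrated arrays 1 and 2, an alternative chosen after seeing the data. With dehydrated 3 and 4 alone 2 probe sets passed, of which Bdnf was 1 of the 31 (1.23, adjusted p = 0.00283), while all 31 kept their direction. The differences of Vgf and Nmu were then 0.53 and 0.60, those of Cdo1 and Olfml3 -0.82 and -0.84 (adjusted p = 0.283, 0.352, 0.0995 and 0.0821). A group cut to 2 arrays has less power whichever arrays are left out, and controls 3 and 4 alone also left 2 calls. With 1 dehydrated array left out, the calls were 9 without array 1, 12 without array 2, 21 without array 3 and 42 without array 4. The part of the arrays high in Avp and Oxt in the calls was not tested. The part of tissue other than area postrema in the Avp and Oxt signals was not tested.

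**Figure D4:**
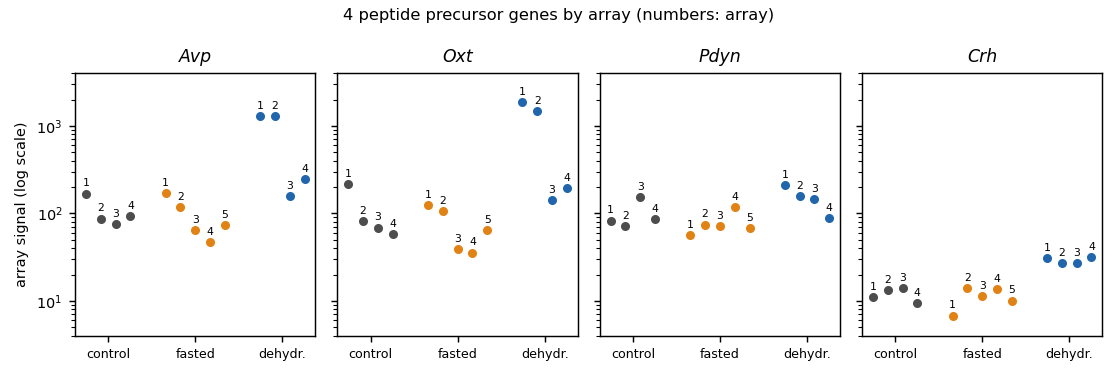
Array signal, on a log scale, of the precursors of vasopressin (Avp), oxytocin (Oxt), dynorphin (Pdyn) and corticotropin-releasing hormone (Crh) in 4 control, 5 fasted and 4 dehydrated arrays, each point numbered by its array. Dehydrated arrays 1 and 2 exceed 1200 for Avp and Oxt while arrays 3 and 4 lie between 141.9 and 244.5; Crh is dim throughout and higher in all 4 dehydrated arrays.

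Among the other neuropeptides of the organ, Nmu was the only call in a list of 21 precursors (median 0.07). Cartpt, the anorectic cocaine- and amphetamine-regulated transcript, read 2424.6, 2646.3, 2073.9 and 2543.4 in controls and 1368.7, 2016.9, 1797.7 and 1974.3 after dehydration. These ranges did not overlap (3.37% of all probe sets were lower in this way), and the difference of -0.44 did not pass (interval -0.73 to -0.16, adjusted p = 0.213). Trh, thyrotropin-releasing hormone, had -0.36 (adjusted p = 0.287), and Nucb2, the nesfatin precursor, 0.11 (adjusted p = 0.75). Of 14 granins, neurotrophins and processing enzymes, 2 rose (Bdnf and Vgf), and the median was 0.12. At an unadjusted p below 0.05, 6 were higher and none lower, against 5.52% and 6.13% of all probe sets tested. The list was chosen with earlier results of these data known and holds Bdnf and Vgf, so its shares are no independent support. Scg2, secretogranin II, had 0.30 (adjusted p = 0.196), Scg3, its partner in granule formation, 0.28 (adjusted p = 0.166), and Cpe, the carboxypeptidase of prohormones, 0.24 (adjusted p = 0.312).

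Receptors through which the area postrema reads hormones gave no call. Calcr had a difference of 0.01 (interval -0.24 to 0.26), its partner Ramp3 -0.02 (-0.26 to 0.21), Glp1r, the receptor for glucagon-like peptide, 0.15 (-0.21 to 0.52) and Casr, the calcium-sensing receptor, 0.07 (-0.14 to 0.27). Adipor1 and Adipor2, the adiponectin receptors, had -0.09 (-0.24 to 0.07) and -0.04 (-0.26 to 0.19). Lepr, the leptin receptor, was below the filter. None of the 13 tested appetite hormone receptors passed, nor any of 6 receptors tied to emesis. Of the enzymes of noradrenaline synthesis, Th had -0.18 (adjusted p = 0.481) and Dbh, dopamine beta-hydroxylase, -0.34 (interval -0.58 to -0.10, adjusted p = 0.25), and no gene passed among 11 of the catecholamine and serotonin systems.

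Immediate early genes and general neuronal markers gave no call. Fos, the usual marker of recently activated neurons, read 61.2, 59.8, 45.2 and 69.6 in controls and 69.5, 107.2, 67.2 and 72.9 after dehydration, with overlap (0.34, interval 0.03 to 0.64, adjusted p = 0.376). None of 20 immediate early genes passed; Dusp6, a phosphatase that limits ERK signalling, had 0.46 (adjusted p = 0.143), and passed without control 3 (0.60, adjusted p = 0.0148). None of 15 neuronal markers passed. At an unadjusted p below 0.05, 4 were higher and none lower, against 5.52% and 6.13% of all probe sets tested. The 15 markers had a median of 0.10. Fasted minus control, their median was 0.07. Their summed signal was 11197 to 11436 in controls, 11421 to 12556 after fasting and 11755 to 12860 after dehydration. For the transmitter markers of glutamate, GABA and glycine neurons the sums were 2752 to 2854, 2645 to 3200 and 3133 to 3223. In both lists the dehydrated sums did not overlap the controls but overlapped the fasted sums. Slc17a6, the vesicular glutamate transporter of hindbrain neurons, had a difference of 0.32 (adjusted p = 0.162). No marker of either list was at 0, and the part of neuronal content in the rises of Bdnf, Vgf, Nmu, Atl1 and Elavl2 was not tested. The 22 voltage-gated channels and the 15 receptors for GABA, glycine and glutamate had medians of 0.14 and 0.11 and no call.

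The other lists held no further calls beside Cdh1 among 11 cadherins and junction genes. In all, 9 of 35 functional lists and 1 of 15 cell type lists had a member that passed. Clock genes had Npas2 at 0.60 (adjusted p = 0.113) and Dbp, an output of the clock, at -0.46 (adjusted p = 0.18), both without overlap. Over all probe sets tested, 6.69% did not overlap. The labels give no time of day of dissection. Igf1, insulin-like growth factor I, had -0.62 (adjusted p = 0.152). The 19 glucocorticoid-responsive genes had a median of -0.07, the 22 ribosomal protein genes -0.03 and the 8 proliferation genes -0.09.

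**Figure D5:**
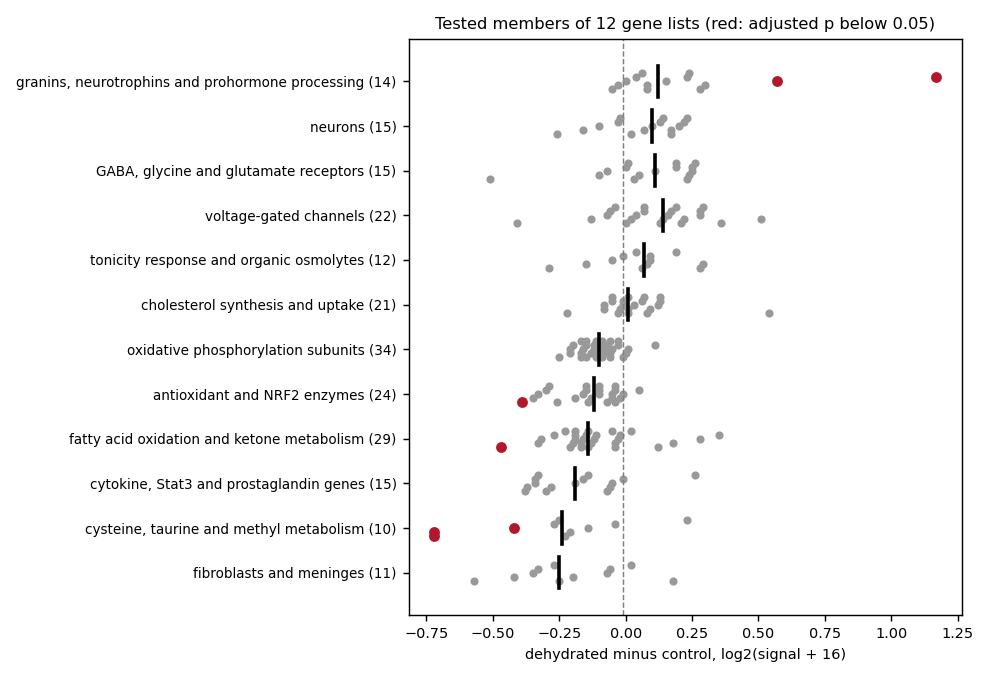
Differences in log2(signal + 16), dehydrated minus control, for the tested members of 12 gene lists, with the number tested in brackets. Each point is a gene, red where it passed, the black bar is the list's median and the dashed line the median of all probe sets, -0.009; medians run from 0.14 in voltage-gated channels to -0.25 in fibroblasts and meninges.

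Dehydrated and fasted rats were compared directly, which tests where the responses to the deprivations differ. Of the same 18625 probe sets, 6 passed for dehydrated minus fasted (0.0322%), 2 higher and 4 lower, and 1 of them, Bdnf, was also among the 31. Bdnf was 1.19 higher than after fasting (SE 0.111, adjusted p = 1.54e-05) and passed in all 26 other settings. Klhl24, a kelch-like adaptor of a ubiquitin ligase, read 76.8, 78.1, 71.2 and 62.9 after dehydration and 127.5, 117.8, 128.9, 154.0 and 145.6 after fasting, a difference of -0.77 (adjusted p = 0.00131); the controls, at 70.1 to 85.0, lay with the dehydrated arrays. This is not the brightest of its 3 probe sets, and the other 2 had dehydrated minus fasted differences of 0.10 and -0.02 (adjusted p = 0.845 and 0.966). The genes of this comparison were chosen after their values were seen. Pbxip1, a partner of PBX transcription factors, was 0.56 lower after dehydration than after fasting (adjusted p = 0.00844), and Sh3bgrl1, a small thioredoxin-fold protein, 0.45 higher (adjusted p = 0.0189). The probe sets 1381262_at and 1371237_a_at, neither with a single gene name, had -0.67 and -0.44 (adjusted p = 0.016 and 0.0189). Pbxip1 did not pass without dehydrated 1 (0.0531), 1381262_at without dehydrated 1 or 3 (0.0531 to 0.0891), Sh3bgrl1 without fasted 3, 4 or 5 or dehydrated 1, 2 or 3 (0.0533 to 0.134), and 1371237_a_at without fasted 3 or 5 or dehydrated 1, 2 or 4 (0.0582 to 0.0929).

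For the other 30 probe sets the difference from fasting did not pass, which does not show that the responses were alike. Nmu was 0.56 higher after dehydration than after fasting (adjusted p = 0.102) and Vgf 0.39 higher (adjusted p = 0.198). Cdh1, Cdo1 and Olfml3 passed for both deprivations against the same controls; 0.0215% of probe sets passed for fasting. Against those controls, Cdh1 differed by 0.68 after dehydration and 0.78 after fasting, Cdo1 by -0.72 and -0.74, and Olfml3 by -0.91 and -0.76. The direct differences between the deprivations were -0.10 for Cdh1, 0.02 for Cdo1 and -0.16 for Olfml3 (adjusted p = 0.766, 0.975 and 0.719). The deprivations lasted 72 h and 48 h, so duration and kind of deprivation cannot be told apart.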

How the data were processed

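The authors deposited linear intensities for every probe set, computed with GCOS 1.2 (named in the submitters' processing notes, without settings). Each array was found scaled to a mean of 100 after trimming 2% at each end. Labelling followed an RNA amplification kit per the labels' protocols.

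Signals were taken as log2(signal + 16). Probe sets in the lowest 40% by mean over the 13 Sprague Dawley arrays were left out. Limma 3.58.1 (R 4.3.3) fitted the control, fasted and dehydrated groups in 1 model with empirical Bayes moderation (trend, robust), two-sided, with Benjamini-Hochberg adjustment. Number-matched control and dehydrated arrays did not deviate together, so no pairing was used. Genes were read at the brightest of their probe sets with 1 symbol (20826 of 31042; 436 had several, 9780 none). Named genes were the 15 largest rises and falls that passed without overlap, up to 3 passing members of each list, and a fixed set of 29. The members and lists were chosen with earlier results of these data known. Each array is a pool of 5 rats, so the number of arrays limits the precision. Alternatives were normalization, pseudocount, filter, moderation, array set, covariates and omission of each array. The fit was tested on simulated data.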

Additional observations from a re-analysis of the deposited data

Results flagged for a closer look

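In 108 groups of control, dehydrated or fasted arrays, for the genes and probe sets that passed, 10 had 1 array standing apart from the rest; chance flags about 1 in 20 such groups. Control 3 was the array apart in 5 of them. It was lowest for Acadvl (351.7, next control 408.0), Ldha (1872.0, next 2273.1), Tcn2 (1094.9, next 1307.6) and Olfml3 (462.3, next 576.0), and highest for Klhl24 (85.0, next 71.4). In the genes that fell, control 3 thus lay on the side of the dehydrated arrays. Dehydrated 1 was highest for Cdh1 (93.2, next 86.0) and lowest for Acsbg1 (553.6, next 610.8). Dehydrated 3 was lowest for 1381262_at (104.6, next 138.2), and control 4 highest for 1371237_a_at (528.2, next 469.8). Fasted 5 was highest for Nmu (130.6, next 108.9).

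The effects of dehydration and fasting differed by the direct test in 6 probe sets. The dehydrated minus fasted values were 1.19 for Bdnf, 0.45 for Sh3bgrl1, -0.77 for Klhl24, -0.67 for 1381262_at, -0.56 for Pbxip1 and -0.44 for 1371237_a_at.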

How the results depend on the processing

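All 31 probe sets kept their direction in each of the 26 other settings in which they were tested; the count of calls moved more. For dehydrated minus control it was 31, against 15 without the brightness filter, 10 without trend and robust moderation, 74 with all 23 arrays, 2 with controls 3 and 4 alone and 2 without dehydrated arrays 1 and 2 (chosen after seeing the data). Leaving out 1 array at a time gave 9 to 56. With only the 2 groups compared it was again 31, of which 21 were shared. With the replicate number as a block, 15 passed, 14 of them shared; the deviations of same-numbered arrays correlated between -0.148 and 0.056, and 1 of 4 dehydrated arrays correlated best with its own number. For dehydrated minus fasted it was 6, against 3 without trend and robust moderation, 1 with the replicate block, 2 with the Gapdh ratio as covariate, 3 without dehydrated arrays 1 and 2, and 2 to 10 with 1 array left out. Differences near 0 changed sign; with 1 array left out, Slc5a3 ranged from -0.02 to 0.19, Akr1b1 from -0.09 to 0.01, Sgk1 from -0.01 to 0.18, Calcr from -0.09 to 0.1, Ramp3 from -0.07 to 0.06 and Adipor2 from -0.12 to 0.05. Without control 4, Ramp3 was 0.03, Adipor2 0.02 and Calcr -0.0. With the Gapdh covariate Ramp3 was 0.02 and Adipor2 0.01, and without dehydrated arrays 1 and 2 they were 0.07 and 0.1. Aqp4 and Calcr were both -0.09 with controls 3 and 4 alone. Calcr was -0.09 without control 2, -0.02 without dehydrated 3 and -0.04 without dehydrated 4. Probe sets near background, such as those of Crh, Trpv1, Nos1 and Lepr, were not tested.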
